A study of Rattus norvegicus with 6 samples.

Results

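Des, Vim, Nes, Tmsb4x and Tmsb10 encode 3 intermediate filament proteins and a pair of small actin-binding peptides, and are treated here as 1 cytoskeletal group linked to muscle regeneration. They were chosen by symbol, as every probe set of the array annotated with exactly 1 of these 5 names. Of the 5 genes, 4 had such a probe set, 1 each, out of 10411 genes with a single-symbol probe set. The 1 probe set that carries the symbol Tmsb10 also carries that of another gene, so Tmsb10 was not analysed here. All 4 measured genes passed the filter on dim probe sets, which kept probe sets whose mean over the 6 arrays corresponded to an intensity above 42.4.

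The samples were the tibialis anterior muscles of both legs of 3 male Wistar rats, with 1 array per muscle. The labels give the age of the rats as 8 weeks. In each rat the peroneal nerve had been cut and attached to the biceps femoris, and the nerve stumps were joined 4 weeks later. Survival was 8 weeks, read here as counted from the nerve repair, a point the labels do not spell out. On this reading the labelled age is not that at sampling, and is taken as that at the start. The 3 contralateral muscles, so read from the abbreviation Cont in the sample titles, came from the other leg of the same operated rats, which carry the numbers 4, 5 and 6. Surgery was under ketamine and xylazine, which both groups share since each rat gave both muscles. No unoperated animal and no muscle that stayed denervated was compared. Whole muscle was measured, so fewer cells of a type and less RNA per cell cannot be told apart.

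Desmin is the main intermediate filament of mature muscle fibres and ties neighbouring Z-discs to each other and to the cell membrane. Vimentin and nestin are expressed with it in muscle precursors and newly formed fibres. Vimentin then disappears from the fibre, whereas nestin is kept mainly near the neuromuscular and myotendinous junctions. Vimentin is also the filament of fibroblasts, endothelial cells and leukocytes. Thymosin beta-4, the product of Tmsb4x, binds actin monomers and keeps them out of filaments, and is abundant in many cell types, leukocytes among them.

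The arrays had median intensities of 60.2 to 66.6 after scaling by the depositors. Muscle identity was clear, since all 7 measured genes of a list of 8 fibre markers, such as Acta1 and Ckm, passed the filter, with summed intensities of 38419 to 47046 contralaterally and 34384 to 42138 ipsilaterally. Beta-actin control probe sets at the 3' end and in the middle of the transcript give a measure of RNA length. Their ratio was 2.77 on the array of contralateral 4 and 2.87 on that of ipsilateral 6, against 1.36 to 1.68 on the others. The same ratio for the Gapdh controls did not set these arrays apart, at 1.15 and 1.19 against 1.02 to 1.21 on the others. Of 9519 probe sets tested with limma, pairing the muscles of a rat, 0 (0%) passed a Benjamini-Hochberg adjusted p of 0.05, while 605 (6.36%) were under 0.05 without adjustment. Leaving out animal 4 raised the number of calls to 241.

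Nes and Vim were the members with a higher ipsilateral value in all 3 animals, a pattern found in 12.3% of all tested probe sets. The 250 bases before the RefSeq start of each are shown for this reason, read 5′ to 3′ on the plus strand of rat build GRCr8, at chr2:175736338-175736587 for Nes and chr17:81577011-81577260 for Vim. Capitals mark the TATA box (TATAAA), the CCAAT box (CCAAT) and the GC box (GGGCGG), searched on both strands and without overlap in these windows.
Nes: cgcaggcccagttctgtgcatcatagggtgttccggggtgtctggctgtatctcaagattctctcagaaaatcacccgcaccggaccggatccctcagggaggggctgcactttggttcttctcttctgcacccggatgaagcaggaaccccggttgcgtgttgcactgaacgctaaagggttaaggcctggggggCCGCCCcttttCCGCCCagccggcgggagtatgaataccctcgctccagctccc
Vim: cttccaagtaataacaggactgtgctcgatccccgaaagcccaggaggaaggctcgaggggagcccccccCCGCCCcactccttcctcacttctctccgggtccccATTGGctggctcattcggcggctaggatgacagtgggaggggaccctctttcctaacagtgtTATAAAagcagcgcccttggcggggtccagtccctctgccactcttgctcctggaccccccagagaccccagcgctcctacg

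The Nes window held 2 GC boxes and neither of the other motifs. The Vim window held 1 motif of each kind. Of 33469 rat promoters with a window of this length, 12.9% held the TATA box, 34.0% the CCAAT box and 30.5% the GC box. The E-box (CANNTG), the element bound by MyoD and myogenin, was found in 65.5% of promoters but in neither the Nes nor the Vim window, while the Des window had 1 and the Tmsb4x window 3. The CArG box of serum response factor, held by 1.497% of promoters, was in none of the 4 windows. These matches describe letters in a short window and say nothing of binding.

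Nes had the largest difference of the 4 genes. Its intensity in animal 4 was 57.3 contralaterally and 79.4 ipsilaterally. Animal 5 had 98.4 and 172, and animal 6 had 89.0 and 106. The injured side was the higher one in each rat, but the groups overlapped, as did those of the other 3 members, because ipsilateral 4 lay below both contralateral 5 and contralateral 6. The mean went from 81.6 ± 21.5 to 119 ± 47.5 (SD, n = 3), a difference of the means of 46.1%. On the scale log2(intensity + 15.8), which understates differences of dim genes, the paired differences were 0.38, 0.72 and 0.22 in animals 4, 5 and 6. The fitted difference was 0.44 (SE 0.16, 95% interval 0.08 to 0.80), with an unadjusted p of 0.0229 and an adjusted p of 0.721 in limma. An unadjusted p under 0.05 with a higher ipsilateral value was found for 3.57% of all tested probe sets, so Nes was not set apart from the background of the array by this test.

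The Nes difference varied in size with the animals included. Its sign could not change on leaving out an animal, since it was positive in each. Leaving out animal 5 gave 0.30, leaving out animal 6 gave 0.55 and leaving out animal 4 gave 0.47. In a setting chosen after the data were seen, without pairing and without the 2 arrays of high actin ratio, it was 0.29 (SE 0.30), which is lower by more than 1.5 times. Without overlap of the groups were 10.5% of all tested probe sets, 4.74% with the ipsilateral values higher. Contralateral 4, on an array of high actin ratio, also had the lowest Nes intensity of all 6.

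Vim was higher on the ipsilateral side by small amounts. Its intensity in animal 4 was 1340 contralaterally and 1409 ipsilaterally. Animal 5 had 993 and 1317, and animal 6 had 1258 and 1329. The ipsilateral values lay close together, and the contralateral value of animal 5 was the lowest of all 6, so that most of the mean difference came from that rat. Group means were 1197 ± 181 and 1352 ± 49.9 (SD, n = 3), and the groups overlapped, since contralateral 4 exceeded ipsilateral 5 and ipsilateral 6.

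The paired log2 differences of Vim were 0.07, 0.40 and 0.08 in animals 4, 5 and 6. The fit gave 0.18 (SE 0.14, 95% interval -0.13 to 0.50; limma adjusted p = 0.847), and without animal 5 the difference was 0.08. An ipsilateral value above the contralateral one in all 3 animals, as for Nes and Vim, was found in 12.3% of tested probe sets. An exact sign-flip permutation test over 3 pairs cannot go below a two-sided p of 0.25, the value it gave for each of these genes.

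Des, the filament gene of the mature fibre, showed no common direction. The intensity was 3108 contralaterally and 3324 ipsilaterally in animal 4. Animal 5 had 3810 and 3099, and animal 6 had 3275 and 2555. The ipsilateral muscle was thus the lower one in animals 5 and 6 and the higher one in animal 4, and the groups overlapped. Group means were 3398 ± 367 and 2993 ± 395 (SD, n = 3), a change of the mean of -11.9%. The paired differences were 0.10, -0.30 and -0.36 on the log2 scale, and the fit gave -0.19 (SE 0.13, 95% interval -0.48 to 0.11; limma adjusted p = 0.846). The 7 tested muscle fibre markers had a median difference of -0.19 as well, with medians of -0.26, -0.47 and 0.08 in animals 4, 5 and 6. Ttn among them differed by 0.35. Whether Des follows the fibre markers was not tested.

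The size of the Des difference moved with the animals included, from -0.33 without animal 4 to -0.13 without animal 5 and -0.10 without animal 6. The lowest Des intensity of each group was on the array with the high actin ratio, contralateral 4 and ipsilateral 6. Without both arrays and without pairing the difference was -0.14 (SE 0.14).

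Tmsb4x was level between the sides in every rat. The intensity was 4166 contralaterally and 4199 ipsilaterally in animal 4. Animal 5 had 4920 and 4808, and animal 6 had 5165 and 5169. Animal 4 had the lowest and animal 6 the highest value on both sides, so that the rats differed from each other by far more than the legs did. The paired log2 differences were 0.01, -0.03 and 0.00, with an SD of 0.02, against an SD over animals of 0.16 contralaterally and 0.15 ipsilaterally. The fitted difference was -0.01 (SE 0.11; limma adjusted p = 0.994), and its 95% interval of -0.25 to 0.24 leaves room for ratios of 0.84 to 1.18 on this scale.

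A fitted difference nearer 0 than that of Tmsb4x was found in 275 of 9519 probe sets (2.89%). The near-equality held for the scaling of the deposited values and for median centring (0.0028). After quantile normalization the difference was 0.12, and without pairing and without the arrays of high actin ratio it was -0.17 (SE 0.13). Neither reached the adjusted threshold, with limma adjusted p-values of 0.84 and 0.982, where the lowest over all alternatives was 0.84.

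**Figure D1:**
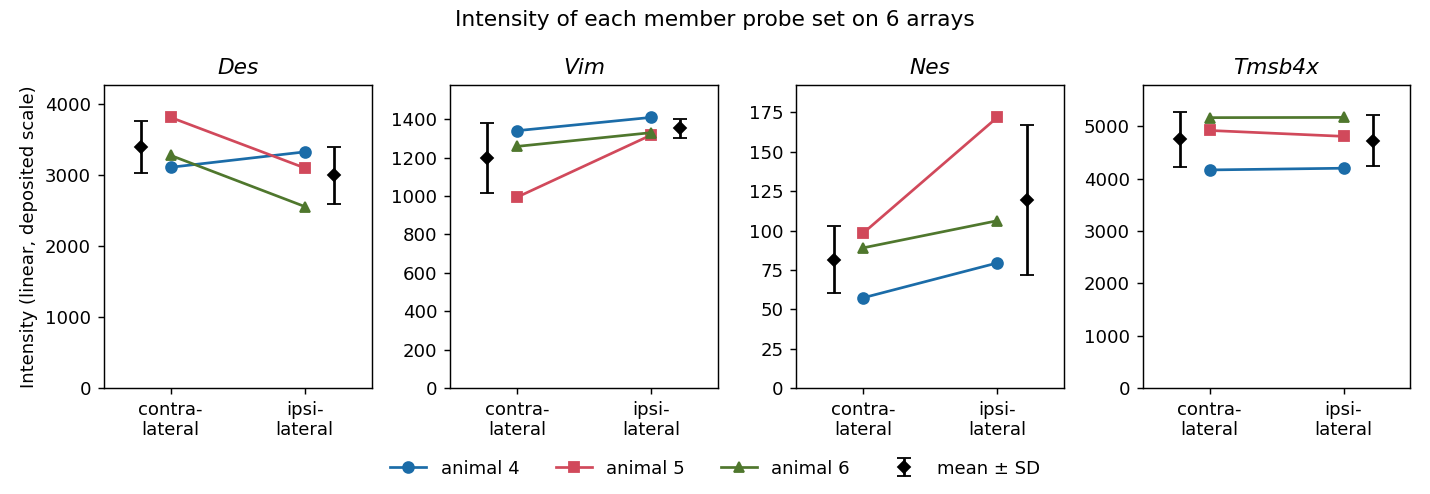
Intensity on the deposited linear scale (vertical axis, from 0) of Des, Vim, Nes and Tmsb4x in the contralateral and ipsilateral muscle. Coloured lines join both muscles of an animal and black diamonds with bars give mean ± SD of 3 arrays. The lines of Nes and Vim slope upward in each animal, Tmsb4x runs flat, and the Des line of animal 4 runs against the other two.

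The members were compared with each other by their differences within an animal, not by their levels, since different probe sets have different brightness. The Nes difference exceeded the Des difference in all 3 animals, by 0.28, 1.01 and 0.58 on the log2 scale in animals 4, 5 and 6. The Vim difference exceeded that of Des by 0.70 in animal 5 and 0.43 in animal 6, but not in animal 4, where the value was -0.02. With 3 animals these contrasts could not reach an exact p under 0.25. As a description over 6 arrays, log2 values of Des and Vim correlated at -0.65, those of Nes and Tmsb4x at 0.55 and those of Nes and Vim at -0.11. The arrays share animals, and no p is given.

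**Figure D2:**
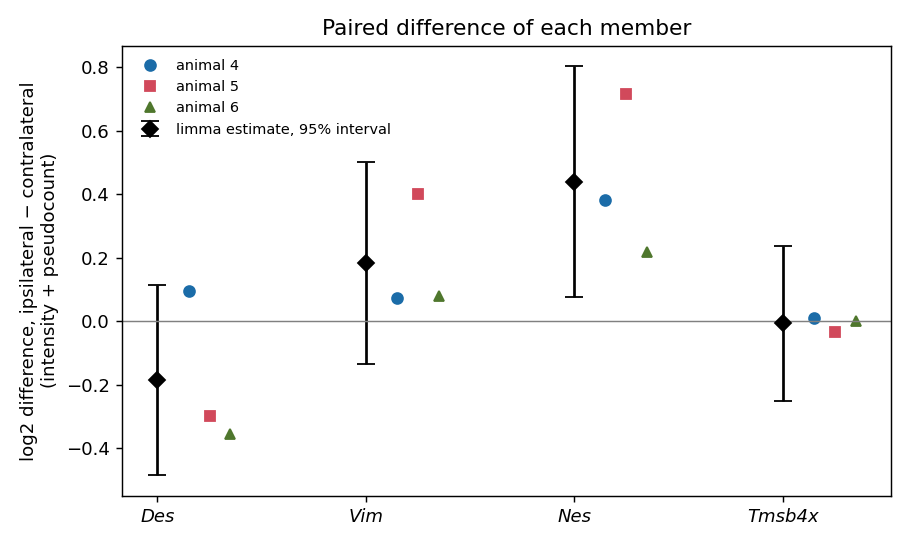
Log2 difference of ipsilateral minus contralateral intensity after a pseudocount of 15.8 (vertical axis) for each gene. Black diamonds with bars are limma's estimate and its 95% interval, and coloured symbols are the 3 animals. The interval of Nes, 0.08 to 0.80, lies above 0 before adjustment for the number of probe sets, and those of Des, Vim and Tmsb4x span 0.

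The genes whose log2 values followed each member most closely over the 6 arrays were named by correlation alone. For Nes these were Cstb, Mcm5 and Igsf1 (r = 0.99, 0.98 and 0.98), and for Vim they were Tm4sf1, Spata19 and Tfam (r = 0.99, 0.98 and 0.98). Des was followed by Kdelr1, Atp9a and Ethe1 (r = 0.995, 0.98 and 0.98), and Tmsb4x by Cdc42bpb, Carhsp1 and Me3 (r = 0.98 for each). With 6 arrays and 8104 probe sets compared, between 75 and 152 of them exceeded r = 0.9 for a given member, so these names carry little weight.

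Other intermediate filament genes were mostly dim in this muscle. Of 16 listed, 15 were on the array and 5 were tested, with a median log2 difference of -0.11, against -0.02 over all tested probe sets. Without animal 5 this median was -0.02, level with the array, and without animal 6 it was -0.24. Synm, whose product synemin joins desmin filaments, was at 1348, 1132 and 1324 contralaterally and 1416, 1129 and 1115 ipsilaterally in animals 4, 5 and 6, a difference of -0.06 (SE 0.14). The nuclear lamin genes Lmna and Lmnb1 differed by 0.10 (SE 0.16) and -0.14 (SE 0.17). Gfap, the glial filament gene, was at 46.6, 75.2 and 65.2 contralaterally and 40.4, 56.8 and 45.5 ipsilaterally, a difference of -0.29 (SE 0.16), and the lens filament gene Bfsp1 differed by -0.11 (SE 0.20). None had an unadjusted p under 0.05. Gfap was the 1 with the same direction in all 3 animals, the lower one, beside 15.1% of all tested probe sets. The neurofilament genes Nefl, Nefm and Nefh and the keratin genes Krt7, Krt8, Krt18 and Krt19 lay below the filter.

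Genes for partners of the desmin network (anchoring proteins, chaperones, the protease gene Capn1 and the ubiquitin ligase gene Trim32) had a median difference of 0.18 over 10 tested of 14 listed, and medians of -0.03, 0.23 and 0.26 in animals 4, 5 and 6. Higher values in all 3 animals were found for 2 of the 10, Dtna and Cryab, and lower ones for 1, Trim32, beside 12.3% and 15.1% of all tested probe sets. Dtna, which encodes the dystrophin-associated protein alpha-dystrobrevin, was at 174, 193 and 91.4 contralaterally and 218, 297 and 190 ipsilaterally in animals 4, 5 and 6. Its difference was 0.61 (SE 0.17), with a limma unadjusted p of 0.00539 and an adjusted p of 0.545, the 1 gene of the list under 0.05 before adjustment, against 3.57% of tested probe sets in this direction. Cryab, the small heat shock protein that binds desmin, differed by 0.20 (SE 0.12), with 0.04, 0.29 and 0.26 in animals 4, 5 and 6. The filamin gene Flnc and the nebulin gene Neb had differences of 0.32 (SE 0.18) and 0.30 (SE 0.15), although in animal 4 both lay below 0. Plec, the plectin that links desmin to Z-discs and membranes, differed by 0.15 (SE 0.15).

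The genes of actin monomer binding, filament severing and capping, among which Tmsb4x acts, had a median difference of 0.01 over 22 tested of 26 listed. Within animals 4, 5 and 6 it was 0.01, 0.03 and 0.01, and 5 genes were higher and 2 lower in all 3 animals, beside 12.3% and 15.1% of all tested probe sets. Its sign is not settled, since it was -0.01 without animal 4 and -0.0049 with the probe sets of a gene averaged. Cap2, a cyclase-associated protein that recycles actin monomers, was the 1 gene with an unadjusted p under 0.05, beside 3.57% of tested probe sets in this direction. It was at 299, 375 and 350 contralaterally and 516, 563 and 345 ipsilaterally. Its difference was 0.43 (SE 0.18), with -0.02 in animal 6, and its dimmer probe set gave 0.25 (SE 0.20). The profilin gene Pfn2 differed by 0.32 (SE 0.19), the pointed-end capping gene Tmod4 by -0.19 (SE 0.12) and the barbed-end capping gene Capg by -0.31 (SE 0.20).

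Tubulin genes, the third filament system, had a median of -0.08 over 8 tested of 12 listed, of 0.03 without animal 4, -0.17 without animal 5 and -0.20 without animal 6. Both genes with an unadjusted p under 0.05 had lower ipsilateral values, against 2.78% of tested probe sets in that direction. Tuba4a, an alpha-tubulin, was at 2462, 2304 and 1810 contralaterally and 2119, 1201 and 1306 ipsilaterally in animals 4, 5 and 6, a difference of -0.54 (SE 0.16; limma adjusted p = 0.545). Tuba8 differed by -0.78 (SE 0.24), with -0.07 in animal 6, Tubb4b by -0.30 (SE 0.16) and Tubg1 by -0.14 (SE 0.16). Tubb2a, Tubb2b and Tubb5 went the other way, by 0.05, 0.15 and 0.12, and Tubb6 differed by -0.02.

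Genes of developing muscle, in whose precursors and new fibres the filament members are known to act, had a median of 0.48 over 6 tested of 15 listed, and medians of 0.32, 0.86 and 0.58 in animals 4, 5 and 6. The median was 0.72 without animal 4 and 0.28 without animal 5, and it was 0.040 over all 11 genes on the array, dim ones included. Embryonic myosin, Myh3, was at 164, 21.9 and 5.8 contralaterally and 309, 931 and 346 ipsilaterally in animals 4, 5 and 6, without overlap of the groups. It passed the filter through its ipsilateral values, so this separation is partly set by the filter. The contralateral values of animals 5 and 6 lay below the filter's intensity, and differences against them are not given, since the pseudocount sets their size. Myl4, the embryonic myosin light chain, had paired differences of 0.46, 1.49 and 0.87 in animals 4, 5 and 6, beside 0.38, 0.72 and 0.22 for Nes. Dlk1, an imprinted fetal gene, differed by 0.39 (SE 0.16), and the myogenic factor gene Myog by 0.56 (SE 0.27), with -0.31 in animal 4. The remaining tested genes, Myod1 and Myf6, differed by only 0.01 (SE 0.15) and -0.05 (SE 0.17). No gene of this list passed the adjusted threshold.

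**Figure D3:**
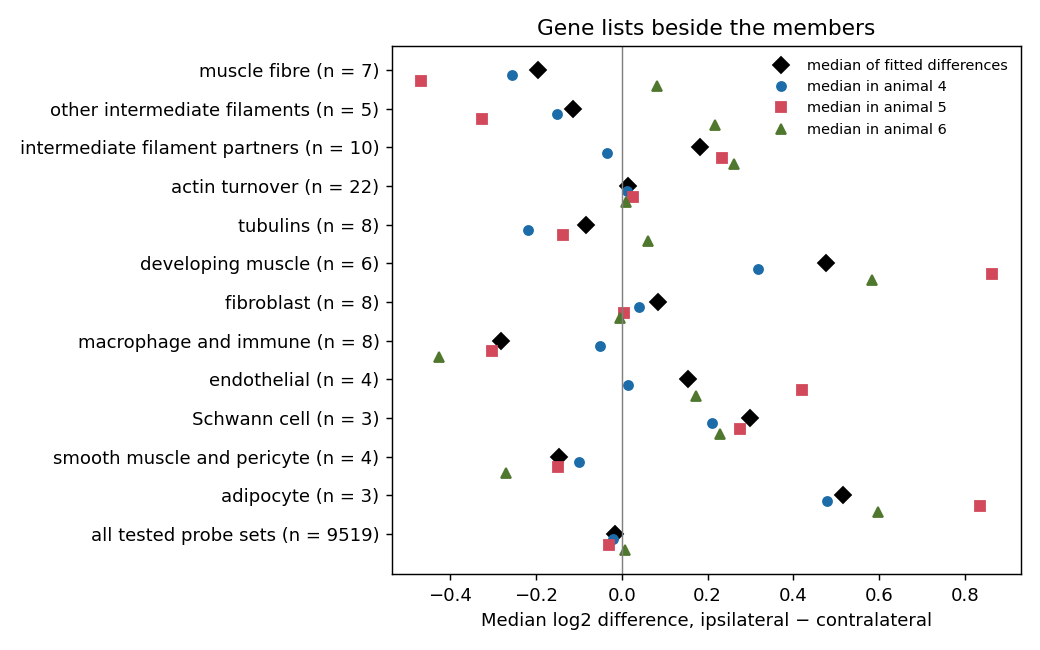
Median log2 difference, ipsilateral minus contralateral (horizontal axis), of each gene list, with the number of tested genes in brackets. Black diamonds are medians of the fitted differences and coloured symbols are the medians in each animal. Developing muscle lies at 0.48 (0.040 with its dim genes included) and actin turnover at 0.01, beside -0.02 for all tested probe sets.

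Vim and Tmsb4x are also expressed by cells other than fibres, whose markers did not share 1 direction. Summed intensities of 8 macrophage and immune markers were 4004 to 4252 contralaterally and 2783 to 3885 ipsilaterally, and their median difference was -0.28, with 5 of 8 lower in all 3 animals, as were 15.1% of tested probe sets. Without animal 5 that median was -0.18. Cd14, Cd74, Cd68 and Lyz2 differed by -0.52, -0.40, -0.38 and -0.29. Tyrobp and Csf1r differed by -0.28 and -0.15, but Aif1 and Ptprc by 0.15 and 0.02. A dim probe set of Ptprc was at 12, 17.2 and 21.5 contralaterally and 18.6, 23.5 and 37 ipsilaterally in animals 4, 5 and 6. Cd74 and Lyz2 made up most of the summed intensities. The 8 fibroblast markers summed to 9547 to 10833 contralaterally and 9486 to 10696 ipsilaterally, with a median difference of 0.08, which was -0.02 without animal 4. Lum, Pdgfra, Dcn and Col1a1 differed by 0.39, 0.27, -0.21 and 0.22. Col1a1 had 0.88, -0.14 and -0.08 in animals 4, 5 and 6, and its dimmer probe set also gave 0.22. Col1a2 differed by -0.15, with 0.14 on its dimmer probe set, and Col3a1 by -0.05. Thy1 and Fbln1 differed by 0.03 and 0.13.

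Schwann cell markers summed to 656 to 761 contralaterally and 830 to 896 ipsilaterally over the 5 of 7 on the array. Most of the sum was Pmp22, with means of 485 and 642. Of the 3 tested, Pmp22 and S100b differed by 0.40 and 0.30 and Mbp by -0.38. The dim Ngfr was at 2.9, 18.9 and 3.3 contralaterally and 1.5, 2.5 and 2.6 ipsilaterally in animals 4, 5 and 6. The dim Sox10 had means of 4.53 and 4.1. A dimmer probe set of Pmp22 gave 0.24, with -0.46 in animal 5. The 4 endothelial markers on the array, out of 6, summed to 590 to 667 and 662 to 947, with a median difference of 0.16, which was -0.03 without animal 5 and 0.27 without animal 4. In it Kdr differed by 0.38 and Vwf by 0.13. All 6 smooth muscle and pericyte markers were on the array and summed to 600 to 908 and 657 to 800.3, with a median difference of -0.15 over the 4 tested, which was -0.25 without animal 4 and 0.011 with the dim genes included. Tagln, Myh11, Rgs5 and Acta2 differed by -0.29, -0.24, 0.08 and -0.06. The dim markers Cspg4 and Pdgfrb were higher in all 3 animals, Cspg4 with 12.4, 17.9 and 19.3 contralaterally and 36.3, 26.2 and 42.1 ipsilaterally. The 6 of 7 adipocyte markers on the array summed to 1122 to 1764 and 1570 to 2496, and the 3 that were tested, Cfd, Scd and Fabp4, were higher in all 3 animals, as were 12.3% of tested probe sets. Of the dim adipocyte markers, Pparg and Lep were lower in all 3 animals, Pparg with 35.4, 43.4 and 64.8 contralaterally and 18.7, 33.9 and 37.2 ipsilaterally. Lep was near the floor, at 3, 3.9 and 2.5 contralaterally and 2.4, 3.5 and 2 ipsilaterally. How many dim probe sets share 1 direction in all 3 animals was not computed, so Pparg, Lep and Pdgfrb stand without a background. Cspg4 was higher without overlap of the groups, as were 3.78% of all probe sets below the filter. No marker of these lists was at 0 on any array. The part of these cells in the values of Vim, Tmsb4x, Nes or Des was not tested.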

How the data were processed

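The authors deposited 1 linear intensity per probe set and array, with a mean of about 150 on every array once the lowest and highest 2% are removed, as found from the values. The sources used here do not give the software behind them. The 57 controls among the 15923 probe sets were dropped. By the platform annotation, possibly outdated, 12789 probe sets have 1 symbol, 312 several (none of these is named) and 2822 none. Symbols were updated through a GRCr8 gene table, which changed 1.

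Differences were fitted on log2(intensity + 15.8), where the added constant is the 20th percentile over all arrays, for the 9519 probe sets above the 40th percentile of mean log2 value, with no further normalization. They were tested in R 4.3.3 with limma 3.58.1 (intensity trend, animal as fixed block, 2 residual and 7.47 prior degrees of freedom, Benjamini-Hochberg over all tested probe sets). The procedure was tested on simulated data. The design gives the pairing, since each animal gave both muscles. Over probe sets, deviations from group means correlated at -0.04, 0.07 and 0.13 between the muscles of animals 4, 5 and 6. The number of arrays limits the precision.

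The members, the 12 gene lists and the tests were chosen with earlier results of these data known. Each gene stands in a list with its brightest probe set, and up to 4 tested genes per list with the smallest p could be named, besides Myh3 and the 3 genes closest to each member. Synm, Plec, Capn1, Trim32, Myod1, Myf6, Tyrobp, Csf1r, Aif1, Ptprc and the dim genes named here were chosen after their values were seen. The same holds for Tubb2a, Tubb2b, Tubb5, Tubb6, Col1a2, Col3a1, Thy1 and Fbln1. Lists are described by counts and medians, without a test. Alternatives covered block, pseudocount, normalization, filter, variance prior, probe set choice and each animal left out. An unpaired setting without the 2 arrays of highest actin ratio was added after seeing the data. Promoter windows are RefSeq sequences of build GRCr8. Plots were made in Python 3.11.15 with matplotlib 3.10.9.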

Additional observations from a re-analysis of the deposited data

How the results depend on the processing

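Des kept a negative and Vim and Nes kept a positive difference under all 13 alternatives, most of which could not have changed the sign. Changing the block, the filter or the variance prior leaves the estimate as it is. Nes and Vim were higher ipsilaterally in each animal, so leaving out an animal or changing the pseudocount cannot turn their sign. None of the 4 genes passed the adjusted threshold under any alternative. Leaving out 1 animal at a time gave -0.33 to -0.10 for Des, 0.08 to 0.24 for Vim, 0.30 to 0.55 for Nes and -0.016 to 0.0063 for Tmsb4x. Tmsb4x changed sign with quantile normalization (0.12), with median centring (0.0028) and without animal 5 (0.0063). The quantile-normalized value had an SE of 0.09, against 0.11 for the deposited scale. The number of probe sets called was 0 to 241 with an animal left out and 1 in the unpaired setting without the arrays of high actin ratio. Without the replicate block it was 0, and the Nes difference of 0.44 had an SE of 0.25 in place of 0.16. The cause was not tested.

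List medians shifted as follows, with main values of 0.30 for Schwann cell, 0.52 for adipocyte and -0.19 for muscle fibre. Actin turnover was 0.038 with quantile normalization, 0.042 without the arrays of high actin ratio, -0.0049 with probe sets averaged and -0.013 to 0.039 with an animal left out. Developing muscle was 0.040 and adipocyte 0.33 without the filter, and developing muscle was 0.28 to 0.72 with an animal left out. Fibroblast was 0.061 with the larger pseudocount and -0.019 to 0.088 with an animal left out. Schwann cell was 0.25 with the larger pseudocount, 0.34 with a pseudocount of 1, -0.029 without the filter, 0.35 with the stricter filter, 0.12 without the arrays of high actin ratio and 0.24 to 0.34 with an animal left out. Smooth muscle and pericyte was 0.011 without the filter, -0.35 without those arrays and -0.25 to -0.10 with an animal left out, and endothelial was 0.41 without those arrays and -0.03 to 0.27 with an animal left out. With an animal left out, other intermediate filaments ran from -0.24 to -0.02, tubulins from -0.20 to 0.03, muscle fibre from -0.33 to -0.06 and macrophage and immune from -0.36 to -0.18. Changes of filter change which dim genes enter a list.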

Other observations

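Among the related genes below the filter, chosen after their values were seen, Tmsb15b2, another beta-thymosin gene, was at 17.9, 2.3 and 18.0 contralaterally and 28.7, 46.4 and 29.9 ipsilaterally in animals 4, 5 and 6, without overlap. Lmnb2, a nuclear lamin gene, was at 20.4, 18.3 and 12.3 and at 28.1, 28.0 and 21.7. Dtnb, the beta-dystrobrevin gene, was at 15, 11 and 23.3 and at 33.9, 25.5 and 32.1. Of the same lists, Nefm, a neurofilament gene, was lower without overlap, at 18.7, 21.5 and 20.1 contralaterally and 11.8, 18.4 and 6.9 ipsilaterally, as was a dim probe set of Synm, at 8.3, 18.1 and 15 and at 4.3, 2 and 1.9. These intensities are near the dim end of the arrays, and 3.78% of all probe sets below the filter had ipsilateral values above all contralateral ones. The share for the lower direction was not computed, so the values of Nefm and Synm stand without a background.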
